A study of Mus musculus with 15 samples.

Results

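Hox genes were followed in RNA purified with tagged ribosomes from the cerebellum of newborn to adult mice. The members are the genes whose symbol in the array's annotation is Hoxa, Hoxb, Hoxc or Hoxd followed by a number. They were read from probe sets that carry a single symbol, and each gene had 1 such probe set. In all, 35 Hox genes were found this way, among 19500 genes and 22092 probe sets. Clusters A, B and C gave 9 genes each and cluster D gave 8. The number in a name is the paralog group, which unites the copies of a gene in the different clusters, and 14 members belong to groups 1 to 5 and 21 to groups 6 to 13.

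All 15 arrays come from mice of the transgene Tg(Pcp2-L10a-Egfp), in which the promoter of Pcp2, known from Purkinje cells, drives L10a, a protein of the large ribosomal subunit, fused to a green fluorescent protein. Cerebella were pooled and tagged ribosomes were captured on beads with antibodies to the tag, a method called TRAP (translating ribosome affinity purification). The RNA was hybridised to Affymetrix arrays, 3 at each of 5 ages, postnatal days 0 (P0), 7 (P7), 15 (P15), 21 (P21) and 56 (P56). No further treatment or genotype is named, and RNA of the whole tissue and of mice without the transgene was not analysed here, so no value is an enrichment over the tissue.

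Hox genes encode homeodomain transcription factors that give cells along the body axis their position. They lie in clusters, and in general genes of low paralog groups act in the hindbrain and neck, while genes of high groups act in the trunk, limbs and tail. They bind DNA with cofactors of the PBX, MEIS and PKNOX families, answer to retinoic acid in the embryo, and are held silent elsewhere by Polycomb proteins. The cerebellum arises from the front end of the hindbrain, ahead of the domains of the Hox genes. Neurons behind it in the medulla and pons, among them those that send axons into the cerebellum, come from Hox-expressing segments.

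The counts below stand beside those of all probe sets, of which 33.6% were higher and 28.5% lower at P7 than at P0. Of the 14 members in groups 1 to 5, 9 were lower at P7 than at P0 and 1 was higher. Hoxa2, Hoxb3, Hoxd3 and Hoxb2 fell most. Of the 21 members in groups 6 to 13, 0 were lower and 5 (23.8%) higher at P7, a share of higher genes below that of all probe sets. At P56, 17 of the 21 were higher than at P0, by 0.24 to 0.95 on the log2 scale. Of all probe sets 40.1% were higher, and of the dim receptor probe sets introduced next 47.6%. Among the 17, Hoxa9, Hoxc11, Hoxd8 and Hoxd13 were not called in a test over all 5 ages. The calls of Hoxa9 and Hoxd8 also ended on leaving out single arrays. The difference between the sets of low and high groups was not tested. Hoxa5 and Hoxb5 returned at P21 to near their P0 signal and fell again by P56. Many of the Hox signals are dim.

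The values are log2 signals per probe set, and higher means brighter. The arrays carry 1196 probe sets for olfactory and vomeronasal receptors, genes known from sensory neurons of the nose, which show how a probe set reads where little of its RNA is likely. Averaged over the 15 arrays, 18 of 35 Hox genes lay above the 95th percentile of these receptors (5.91), and all 35 lay above the receptor median (4.45). Of the 35, 0 lay above the median of all probe sets. By age, 19 Hox genes exceeded the receptor percentile at P0, 16 at P7, 18 at P15, 18 at P21 and 16 at P56. A signal near or under this mark is not shown to be above background, and a fall to it has an uncertain size. Probes differ in brightness, so the level of 1 gene is not compared with that of another.

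Whole-array facts bear on these values. Array medians ranged from 7.59 to 7.93, and they were lowest at P56. Of 12 Purkinje cell markers, 11 were measured, and their mean was 9.04 ± 0.03 (SD, n = 3) at P0 and between 12.62 and 12.73 at the later ages. Pcp2 itself rose from 8.53 at P0 to 13.16 at P7. The amount of tagged ribosomes was not measured. In such bulk RNA, fewer cells of a type and less RNA per cell cannot be told apart. The labels do not state whether replicates of an age were different pools of animals, and for shared pools the p-values would reflect technical spread only. No batch is named, so batch and age cannot be told apart.

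Of the 35 Hox genes, 25 differed between ages in limma's moderated F-test at an adjusted p under 0.05, against 81.6% of all probe sets. The 10 that were not called were Hoxa6, Hoxa9, Hoxb1, Hoxb4, Hoxc11, Hoxd4, Hoxd8, Hoxd9, Hoxd10 and Hoxd13. The lowest adjusted p belonged to Hoxa2 (1.32e-12), Hoxb3 (1.93e-08), Hoxa5 (7.58e-08) and Hoxb5 (2.23e-07).

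**Figure D1:**
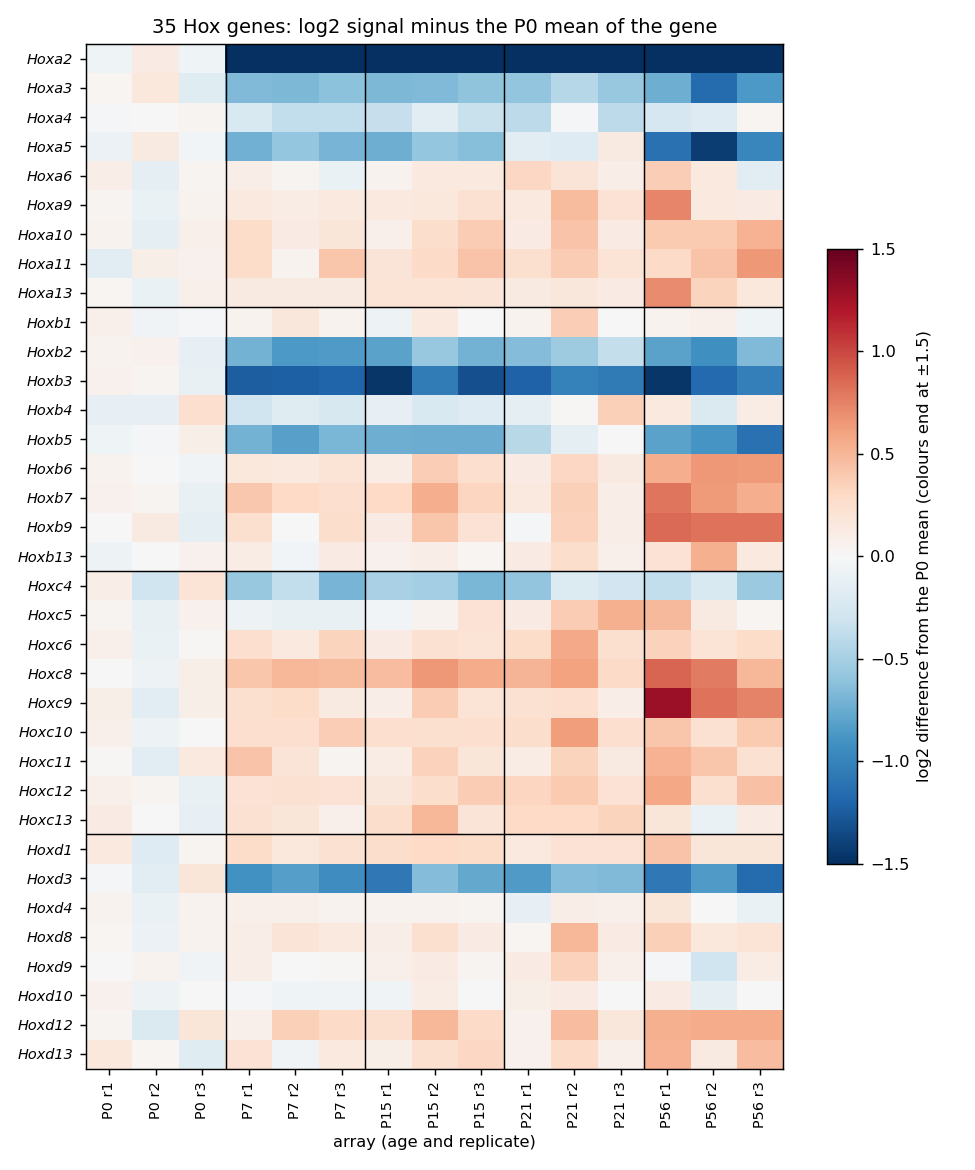
Each row is 1 of the 35 Hox genes and each column 1 of the 15 arrays, grouped by age (r1 to r3 are replicates). Colour gives the log2 signal minus the gene's own P0 mean, with colours ending at ±1.5, so Hoxa2, at −2.21 at P7, is shown at the end of the scale. Hoxa2, Hoxb3, Hoxd3 and the other 6 genes lower at P7 are blue there, Hoxb1, Hoxd1 and Hoxd4 are pale, and most genes of groups 6 to 13 are pale to red, with Hoxc9 and Hoxb9 deepest at P56.

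Promoter sequences are shown first for the 3 members with the largest falls at P7 among those whose promoter was available. Their courses differed: 1 lay below the receptor mark at all later ages, 1 stayed above it, and 1 was higher again at P21. Each sequence is the 250 bases before a RefSeq start site in the mouse build GRCm38.p6, read 5′ to 3′ on the gene's own strand. The window of Hoxa2, the gene that fell below the mark, is chr6:52164832-52165081 on the minus strand. That of Hoxd3, which stayed above it, is chr2:74711743-74711992 on the plus strand. That of Hoxa5, which returned at P21, is chr6:52204588-52204837 on the minus strand. Capitals mark matches to either of the 2 motifs named after them.

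Hoxa2: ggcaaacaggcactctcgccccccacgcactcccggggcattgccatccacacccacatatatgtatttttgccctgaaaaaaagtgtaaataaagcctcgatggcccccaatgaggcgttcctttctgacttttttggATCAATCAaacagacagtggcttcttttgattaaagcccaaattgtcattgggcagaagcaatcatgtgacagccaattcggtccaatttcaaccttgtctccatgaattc
Hoxd3: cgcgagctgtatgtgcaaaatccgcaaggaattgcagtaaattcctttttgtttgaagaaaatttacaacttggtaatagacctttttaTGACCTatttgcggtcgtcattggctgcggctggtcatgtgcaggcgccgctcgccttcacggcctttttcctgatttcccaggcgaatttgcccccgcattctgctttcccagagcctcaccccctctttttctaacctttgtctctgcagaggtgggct
Hoxa5: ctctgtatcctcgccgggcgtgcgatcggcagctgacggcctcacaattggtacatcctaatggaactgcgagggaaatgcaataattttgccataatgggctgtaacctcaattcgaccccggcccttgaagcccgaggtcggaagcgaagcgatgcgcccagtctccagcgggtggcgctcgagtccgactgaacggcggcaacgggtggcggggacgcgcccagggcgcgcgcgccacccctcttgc

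The motifs searched, on both strands, were AGGTCA and TGATNNAT. AGGTCA is a part of the element of retinoic acid receptors and not a whole one, and TGATNNAT is a site of PBX-HOX dimers. No match of 1 overlapped the other in these 3 windows. Hoxa2 held 1 PBX-HOX match, Hoxd3 held 1 AGGTCA match, and Hoxa5 held neither. Promoters of 19 Hox genes were in the table, 20 windows in all. AGGTCA was in 6 of the 20 and in 14.02% of all 32851 promoters, and the PBX-HOX site in 2 of the 20 (Hoxa2 and Hoxb1) and in 7.68% of all. Hox windows held 3 to 35 CpG dinucleotides with a median of 13, against a median of 6 over all promoters. Hoxa2 held 6, Hoxd3 held 12 and Hoxa5 held 28. A match is a description of letters and not a binding site.

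In the first week, 9 Hox genes fell and 6 rose. Over all probe sets, 28.5% were lower and 33.6% higher at P7, so the Hox shares (25.7% lower and 17.1% higher) were not above the background. The lower genes were Hoxa2, Hoxa3, Hoxa4, Hoxa5, Hoxb2, Hoxb3, Hoxb5, Hoxc4 and Hoxd3, all from paralog groups 2 to 5. The other 3 measured genes of those groups, Hoxb4 (−0.24, adjusted p 0.108), Hoxc5 (−0.10) and Hoxd4 (0.07), were not called. The median change was −0.60 in groups 1 to 5 and 0.17 in groups 6 to 13, beside 0.05 over all probe sets and 0.04 over the receptors.

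Hoxa2, the Hox gene whose domain reaches farthest forward in the hindbrain, gave 7.61, 7.80 and 7.61 on the P0 arrays, 5.38, 5.42 and 5.59 at P7, 5.42, 5.30 and 5.67 at P15, 5.70, 5.41 and 5.54 at P21 and 5.65, 5.54 and 5.59 at P56. The P0 arrays stood far above all 12 later arrays, which overlapped each other. At P7 it had fallen by 2.21 (SE 0.10, n = 3 per age, limma adjusted p 1.51e-12), and P56 stood at −2.08 from P0. From P7 on, its mean of 5.46 to 5.60 lay below the receptor percentile of each age, so no signal above background is shown there and the size of the fall is uncertain. Its partner in group 2, Hoxb2, which acts in the hindbrain segments behind the front limit, gave 7.54, 7.55 and 7.36 on the P0 arrays, 6.77, 6.62 and 6.63 at P7, 6.68, 6.91 and 6.77 at P15, 6.83, 6.95 and 7.12 at P21 and 6.67, 6.56 and 6.82 at P56. It was brightest at P0 without overlap, fell by 0.81 at P7 (SE 0.09, adjusted p 5.28e-07), and stood at −0.79 at P56. Unlike Hoxa2, it kept a mean of at least 6.67 at every age. Whether the fall of Hoxa2 differs from that of Hoxb2 was not tested, and different probe sets need not scale alike.

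Group 3 genes pattern the caudal hindbrain and neck. Hoxb3 gave 8.52, 8.49 and 8.34 on the P0 arrays, 7.22, 7.23 and 7.25 at P7, 6.99, 7.41 and 7.13 at P15, 7.24, 7.44 and 7.39 at P21 and 6.99, 7.28 and 7.42 at P56. Every P0 array exceeded every later one. The change at P7 was −1.22 (SE 0.11, adjusted p 2.14e-08), and P56 stood at −1.22 from P0 as well. Hoxd3 gave 7.40, 7.26 and 7.59 on the P0 arrays, 6.51, 6.59 and 6.49 at P7, 6.34, 6.76 and 6.65 at P15, 6.56, 6.77 and 6.75 at P21 and 6.35, 6.57 and 6.26 at P56. It too was highest at P0 without overlap, with −0.89 at P7 (SE 0.11, adjusted p 1.47e-06) and −1.02 at P56. Hoxa3, known for its part in thymus and parathyroid development, gave 5.84, 5.96 and 5.63 on the P0 arrays, 5.15, 5.14 and 5.19 at P7, 5.13, 5.15 and 5.20 at P15, 5.22, 5.39 and 5.24 at P21 and 5.07, 4.65 and 4.95 at P56. It was dim throughout, below the receptor percentile even at P0 (5.81 against 5.84), yet its P0 arrays did not overlap the others. Its changes were −0.65 at P7 (adjusted p 1.57e-05) and −0.92 at P56 (adjusted p 1.76e-07).

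Of the 4 measured genes of group 4, Hoxa4 and Hoxc4 were lower at P7, and Hoxb4 and Hoxd4 were not called. Hoxa4 gave 7.70, 7.73 and 7.77 on the P0 arrays, 7.51, 7.37 and 7.36 at P7, 7.39, 7.58 and 7.40 at P15, 7.34, 7.70 and 7.34 at P21 and 7.48, 7.55 and 7.76 at P56. It was bright relative to the receptors at every age and was lower at P7 (−0.32, SE 0.10, adjusted p 0.00866), a call that quantile normalization ended (−0.21). By P56 its arrays overlapped those of P0, and the change of −0.14 turned to 0.18 with array medians set to 0 and to 0.19 with quantile normalization. Hoxc4 gave 6.09, 5.69 and 6.19 on the P0 arrays, 5.42, 5.62 and 5.29 at P7, 5.51, 5.48 and 5.31 at P15, 5.40, 5.78 and 5.71 at P21 and 5.62, 5.76 and 5.43 at P56. It was lower at P7 (−0.54, SE 0.13, adjusted p 0.00148), without overlap. At P56 it was lower by limma (−0.38, adjusted p 0.0138) although the arrays overlapped. That call ended with array medians set to 0 (−0.06), with array weights (−0.38), and on leaving out P0 replicate 1 (−0.34), P0 replicate 3 (−0.28) or P56 replicate 3 (−0.30). Hoxd4 gave 5.96, 5.81 and 5.96 on the P0 arrays, 5.99, 5.98 and 5.96 at P7, 5.96, 5.96 and 5.95 at P15, 5.78, 6.01 and 5.98 at P21 and 6.09, 5.91 and 5.81 at P56, and its ages overlapped throughout. Hoxb4 was not called in any pair of ages tested.

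**Figure D2:**
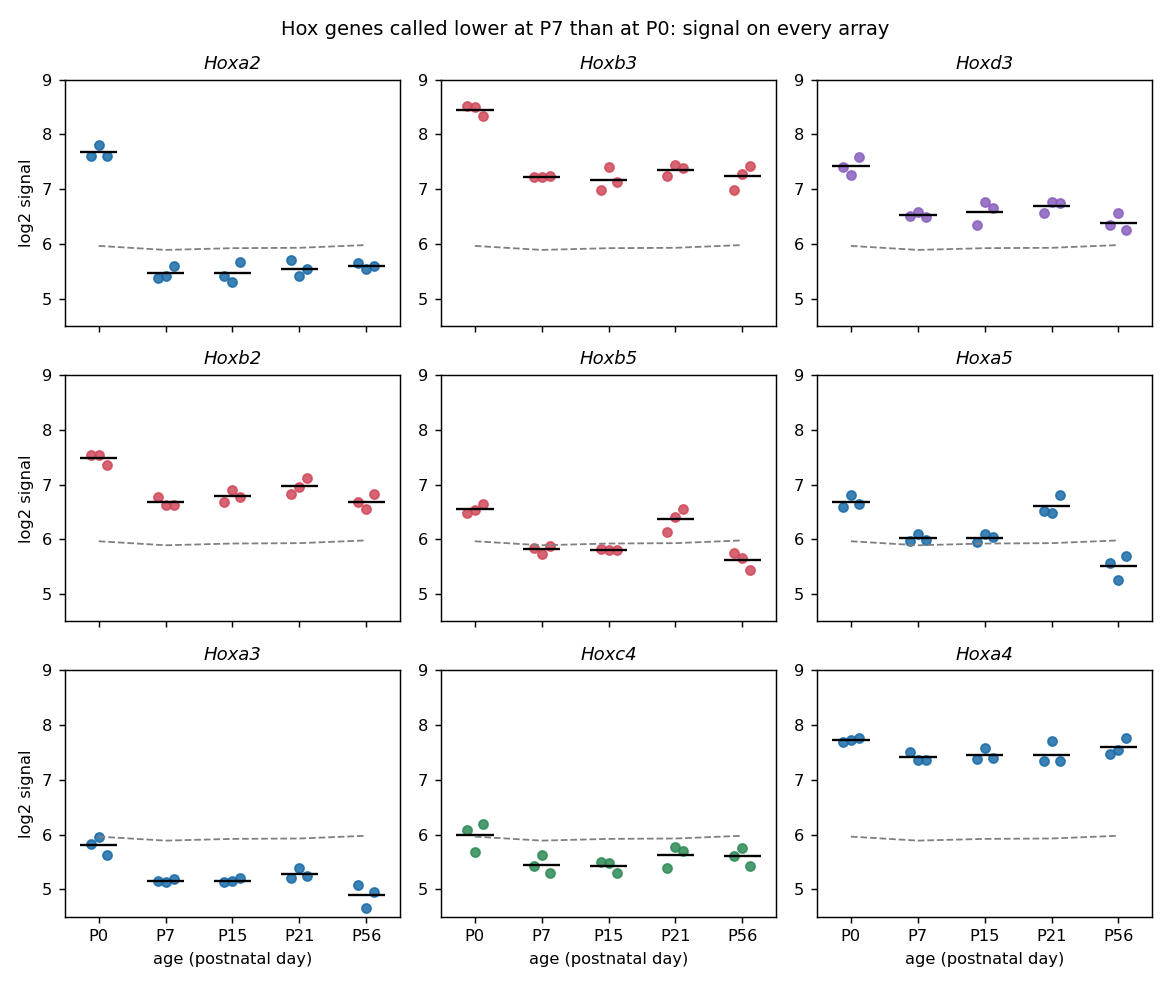
Log2 signal (vertical axis) of the 9 Hox genes lower at P7 than at P0, by age (horizontal axis). Each point is 1 array, black bars are means of 3 arrays, and the dashed line is the lower quartile of all probe sets at that age, from 5.89 to 5.98. Hoxa2 dropped from 7.68 to 5.47, below that line, while Hoxb3, Hoxd3, Hoxb2 and Hoxa4 stayed above it at every age, and Hoxa5 and Hoxb5 peaked again at P21.

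Of the 3 measured genes of group 5, Hoxa5 and Hoxb5 were lower at P7 and higher again at P21, and Hoxc5 was not called at either step. Hoxa5, which in the caudal hindbrain and neck is needed for breathing circuits, gave 6.60, 6.81 and 6.64 on the P0 arrays, 5.96, 6.10 and 5.98 at P7, 5.95, 6.10 and 6.04 at P15, 6.51, 6.49 and 6.82 at P21 and 5.56, 5.26 and 5.70 at P56. P0 and P21 were high and overlapped, P7 and P15 were lower and overlapped, and P56 was lowest. The steps were −0.67 at P7 (adjusted p 3.17e-05), 0.58 at P21 against P15 (SE 0.11, adjusted p 0.00125) and −1.10 at P56 against P21 (adjusted p 1.64e-07), for −1.17 over the whole span. Hoxb5 gave 6.49, 6.53 and 6.64 on the P0 arrays, 5.85, 5.73 and 5.87 at P7, 5.82, 5.81 and 5.81 at P15, 6.14, 6.41 and 6.56 at P21 and 5.75, 5.67 and 5.43 at P56. Its means showed the same order, although the P56 arrays overlapped those of P7, with −0.73 at P7 (adjusted p 3.19e-06), 0.56 at P21 (SE 0.10, adjusted p 7.82e-04), −0.75 at P56 against P21 (adjusted p 4.17e-06) and −0.93 against P0. Hoxa5 lay below the receptor percentile at P56 (5.51). Hoxb5 lay at 5.82 at P7, 5.81 at P15 and 5.62 at P56, below that mark at each of these ages. Hoxc5, which acts with Hoxa5 in phrenic motor neurons, gave 5.92, 5.77 and 5.93 on the P0 arrays, 5.80, 5.76 and 5.76 at P7, 5.84, 5.92 and 6.09 at P15, 5.99, 6.25 and 6.41 at P21 and 6.36, 6.004 and 5.90 at P56. It was not called in any pair of ages tested, its P21 change of 0.27 having an adjusted p of 0.131, though it passed the test over all ages (adjusted p 0.0141).

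Hoxa5 and Hoxb5 were the 2 Hox genes higher at P21 than at P15, and 0 were lower. Over all probe sets, 10.5% were higher and 7.16% lower at that step, and at an unadjusted p under 0.05 limma gave 3 Hox genes higher and 0 lower. Markers of brainstem neurons moved with them. Of 20 such markers, 17 were measured, with a mean of 8.37 ± 0.00 (SD, n = 3) at P0, 7.09 ± 0.10 at P7, 7.05 ± 0.01 at P15, 7.76 ± 0.17 at P21 and 6.53 ± 0.02 at P56. At P7, 15 of the 17 were lower and 0 higher than at P0, beside 28.5% and 33.6% of all probe sets. At P21, 14 were higher and 0 lower than at P15 (median change 0.73). At P56, 14 were lower and 1 higher than at P21, beside 34.3% and 22.1% of all probe sets. Below the receptor percentile lay 1 of the 17 at P0, 2 at P7, 2 at P15, 1 at P21 and 8 at P56. Their part in the Hox values was not tested.

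Tac1, Slc17a6, Slc18a2 and Slc6a4 are the brainstem genes with the largest called changes from P0 to P56. A large change over that span is thus set by the choice. Their means fell from P0 to P15, rose at P21 and fell again by P56. Tac1, the precursor of substance P, went from 9.85 at P0 to 6.46 at P15, 8.11 at P21 and 5.00 at P56. Slc17a6, a glutamate transporter of brainstem neurons, went from 11.73 to 8.70, 9.67 and 7.38 at these ages. Slc18a2, the monoamine transporter of vesicles, went from 9.32 to 6.98, 8.12 and 5.85, and Slc6a4, the serotonin transporter, from 9.62 to 7.58, 8.21 and 6.63. The gene that rose at P56 was Th, the rate-limiting enzyme of catecholamine synthesis, with 2.16 against P0, named here after its value was seen. By array, the brainstem mean at P21 was 7.69, 7.64 and 7.95, and replicate 3 was also the highest P21 array for Hoxa5 (6.82) and Hoxb5 (6.56). This was not particular to brainstem genes: replicate 3 was the highest P21 array in 9 of 11 cell type lists, among them choroid plexus (8.94), red blood cells (7.68), microglia (7.16) and the oligodendrocyte lineage (9.85). Without P21 replicate 3 the P21 changes were 0.47 for Hoxa5 (adjusted p 0.00983) and 0.46 for Hoxb5 (adjusted p 0.0060), and both calls stood under every alternative that gave a value.

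**Figure D3:**
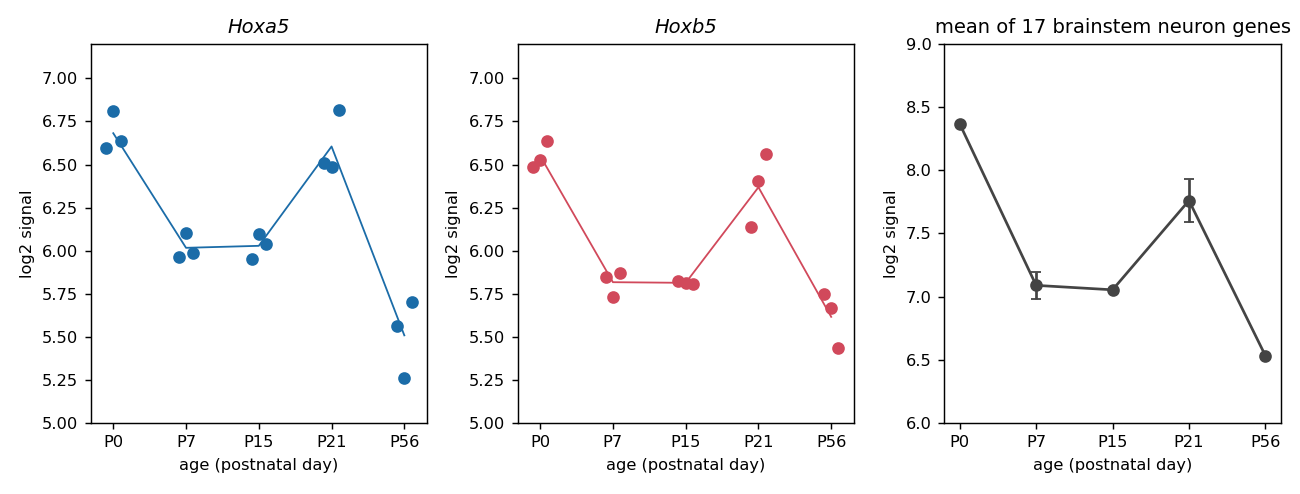
Log2 signal by age for Hoxa5 and Hoxb5 (points are arrays, lines join the means of 3 arrays) and the mean of 17 brainstem neuron genes (points are means of 3 arrays, bars are SD). In each panel P0 and P21 lie above P7 and P15, and P56 is lowest, and the vertical axes differ between panels.

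Markers of several other kinds of cell also moved in the first week. Over all probe sets, 28.5% were lower and 33.6% higher at P7 than at P0. At P21 against P15, 7.16% were lower and 10.5% higher, and at P56 against P21, 34.3% were lower and 22.1% higher. All 10 of 10 endothelial and mural markers were lower at P7 (mean 9.28 at P0 and 7.23 at P7), as were 10 of 10 meningeal markers (8.80 and 7.28) and 7 of 7 microglial markers (8.48 and 6.83). The microglial mean was 6.77 at P15 and 7.07 at P21, with 2 of 7 markers higher and 0 lower at that step (median 0.25), and 4 were lower and 0 higher at P56 than at P21. At P21 against P15, 1 meningeal marker was higher and 0 lower, and 1 endothelial or mural marker was higher and 1 lower. Of 9 measured markers of pontine, olivary and other precerebellar neurons, 7 were lower and 2 higher at P7 (9.15 and 8.33), and at P21 1 was higher and 3 were lower than at P15. Of 8 choroid plexus markers, 6 were lower and 1 higher at P7 (9.27 and 8.31). Their mean was 8.44 at P15, 8.79 at P21 and 8.11 ± 0.55 (SD, n = 3) at P56. At P21 against P15, 1 choroid plexus marker was higher and 1 lower (median change 0.36), and at P56 6 were lower and 1 higher than at P21. Of 6 red blood cell markers 2 were measured, and both were lower at P7 and higher at P21 (1 of the 2 at P21 with array medians set to 0). The part of these cells in the Hox values was not tested.

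Means of other glia and of granule cells ran otherwise. Oligodendrocyte markers averaged 7.66 at P0, 9.12 at P7, 9.56 at P15, 9.70 at P21 and 8.64 at P56, and astrocyte markers 10.26, 10.15, 10.10, 10.01 and 9.57. Granule cell markers averaged 9.21, 10.90, 11.37, 11.32 and 10.86 at these ages. None of these 3 means both fell from P0 to P7 and rose from P15 to P21, but single markers were mixed. Of 7 astrocyte markers, 4 were lower and 2 higher at P7, and 2 were higher and 2 lower at P21 than at P15. Of 7 oligodendrocyte markers, 2 were lower and 5 higher at P7, and 1 was higher and 0 lower at P21. Of 8 granule cell markers, 1 was lower and 5 higher at P7, and 2 were higher and 3 lower at P21. The part of these cells in the Hox values was also not tested.

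Group 1 genes, which specify hindbrain segments, were not called lower at any step. Hoxb1, known for the segment that makes facial motor neurons, gave 7.28, 7.15 and 7.18 on the P0 arrays, 7.25, 7.37 and 7.26 at P7, 7.13, 7.35 and 7.21 at P15, 7.25, 7.57 and 7.21 at P21 and 7.25, 7.28 and 7.14 at P56. Its ages overlapped, and it was not called in any comparison. Hoxd1, also of this group, was dim, with 5.32 at P0 and 5.58 at P56. It was higher at P7 (0.22, adjusted p 0.0319) and at P56 against P0 (0.27, adjusted p 0.00943). The first call ended without P0 replicate 2 (0.13), P7 replicate 1 (0.19) or P7 replicate 3 (0.22), and the second without P0 replicate 2 (0.17) or P56 replicate 1 (0.18) and with quantile normalization (0.18).

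Between P7 and P15, 0 of 35 Hox genes were higher and 0 lower by limma, also at an unadjusted p under 0.05, against 10.4% higher and 13.6% lower over all probe sets. The changes ran from −0.07 to 0.18 with a median of 0.05. The gene with the widest change was Hoxc5 (0.18, adjusted p 0.327).

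Between P21 and P56, 7 of the 35 were higher (Hoxa13, Hoxb6, Hoxb7, Hoxb9, Hoxc8, Hoxc9 and Hoxd12) and 7 lower (Hoxa3, Hoxa5, Hoxb2, Hoxb5, Hoxc13, Hoxd3 and Hoxd9). These Hox shares, 20.0% each, were not above the 22.1% higher and 34.3% lower over all probe sets. The 7 higher genes all belong to paralog groups 6 to 13, and 5 of the 7 lower ones to groups 1 to 5. The split was 19 higher and 2 lower with array medians set to 0, which moves the median of all probe sets from −0.03 to 0.21. It was 4 and 3 with array weights and 4 and 4 without P21 replicate 3, and 4 were lower without P21 replicate 2 or without P56 replicate 2. The latter array had a choroid plexus mean of 8.74, beside 7.75 and 7.83 on the other P56 arrays.

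Of the 10 measured genes of groups 6 to 9, Hoxb6, Hoxb7, Hoxb9, Hoxc8 and Hoxc9 were higher at P56 than at P21, Hoxd9 was lower, and the others were not called. Hoxb6 gave 6.31, 6.25 and 6.20 on the P0 arrays, 6.41, 6.41 and 6.46 at P7, 6.37, 6.63 and 6.51 at P15, 6.38, 6.57 and 6.39 at P21 and 6.80, 6.90 and 6.89 at P56. All P56 arrays exceeded all others, with 0.42 against P21 (adjusted p 1.31e-04) and 0.61 against P0 (SE 0.07, adjusted p 9.43e-07). Hoxb7 gave 6.34, 6.32 and 6.17 on the P0 arrays, 6.68, 6.57 and 6.53 at P7, 6.57, 6.82 and 6.59 at P15, 6.42, 6.63 and 6.37 at P21 and 7.08, 6.91 and 6.82 at P56. It was lowest at P0, higher at P7 (0.32, adjusted p 0.00592), and at P56 reached 0.66 above P0 (SE 0.09, adjusted p 4.48e-06), with P56 replicate 3 level with P15 replicate 2. Hoxa6, of the limb-level spinal cord, gave 6.26, 6.02 and 6.21 on the P0 arrays, 6.26, 6.20 and 6.06 at P7, 6.22, 6.31 and 6.31 at P15, 6.48, 6.36 and 6.26 at P21 and 6.53, 6.31 and 5.99 at P56. Its ages overlapped and it was not called in any comparison.

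Hoxc8, a gene of brachial motor pools, gave 5.35, 5.28 and 5.45 on the P0 arrays, 5.78, 5.86 and 5.83 at P7, 5.83, 6.01 and 5.92 at P15, 5.88, 5.96 and 5.64 at P21 and 6.23, 6.14 and 5.86 at P56. P0 lay below all later arrays, with 0.46 at P7 (SE 0.10, adjusted p 4.21e-04) and 0.72 at P56 (adjusted p 2.84e-06). Its rise from P21 to P56 (0.25, adjusted p 0.0337, arrays overlapping) ended without P21 replicate 3 (0.16), P56 replicate 1 (0.18) or P56 replicate 2 (0.22) and with array weights (0.24). Hoxc9, which sets thoracic motor neuron identity, gave 5.60, 5.34 and 5.61 on the P0 arrays, 5.76, 5.79 and 5.66 at P7, 5.61, 5.90 and 5.72 at P15, 5.74, 5.77 and 5.61 at P21 and 6.80, 6.33 and 6.26 at P56. P56 stood apart without overlap, led by replicate 1, with 0.75 against P21 (SE 0.12, adjusted p 3.94e-05) and 0.95 against P0 (adjusted p 1.37e-06). Hoxb9 gave 6.43, 6.57 and 6.29 on the P0 arrays, 6.67, 6.44 and 6.69 at P7, 6.56, 6.85 and 6.65 at P15, 6.41, 6.78 and 6.53 at P21 and 7.28, 7.24 and 7.25 at P56. Its P56 arrays, within 0.05 of each other, exceeded all others, with 0.68 against P21 (adjusted p 2.48e-05) and 0.82 against P0 (adjusted p 1.32e-06). Hoxd9 gave 6.13, 6.18 and 6.07 on the P0 arrays, 6.23, 6.13 and 6.14 at P7, 6.21, 6.25 and 6.17 at P15, 6.25, 6.48 and 6.21 at P21 and 6.12, 5.83 and 6.24 at P56. It was lower at P56 than at P21 (−0.25, adjusted p 0.0309) with overlap, a call lost without P21 replicate 2 (−0.16) or P56 replicate 2 (−0.13), with array medians set to 0 (−0.01) and with array weights (−0.23).

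Groups 10 to 13 act at the tail end of the axis and in limbs and genital tract. Hoxa10 gave 5.81, 5.63 and 5.84 on the P0 arrays, 6.04, 5.88 and 5.94 at P7, 5.83, 6.03 and 6.15 at P15, 5.88, 6.19 and 5.88 at P21 and 6.15, 6.16 and 6.28 at P56. P56 lay above P0 (0.44, SE 0.10, adjusted p 6.33e-04) and overlapped P21. Hoxc12, known from hair follicles and limbs, gave 5.93, 5.89 and 5.73 on the P0 arrays, 6.07, 6.08 and 6.07 at P7, 6.01, 6.12 and 6.23 at P15, 6.17, 6.24 and 6.07 at P21 and 6.42, 6.09 and 6.29 at P56. It was 0.42 above P0 at P56 (adjusted p 2.98e-04), while its P7 call (0.23, adjusted p 0.0309) ended without P0 replicate 3 (0.17) and without any 1 of the P7 replicates (0.22 to 0.23). Hoxd12, a gene of developing digits, gave 5.25, 5.00 and 5.39 on the P0 arrays, 5.29, 5.57 and 5.50 at P7, 5.46, 5.72 and 5.50 at P15, 5.28, 5.68 and 5.38 at P21 and 5.74, 5.77 and 5.77 at P56. It was lower than the receptor percentile at every age, and rose by 0.55 from P0 to P56 (SE 0.11, adjusted p 2.84e-04). Hoxb13, known from the prostate and tail tip, gave 6.09, 6.17 and 6.23 on the P0 arrays, 6.27, 6.12 and 6.29 at P7, 6.22, 6.26 and 6.19 at P15, 6.29, 6.43 and 6.24 at P21 and 6.38, 6.70 and 6.31 at P56, and P56 lay 0.30 above P0 (adjusted p 0.00645) without overlap.

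Other calls between P21 and P56 were weaker. That of Hoxd12 (0.32, adjusted p 0.0229) ended without P21 replicate 1 (0.23), P21 replicate 3 (0.29), P56 replicate 2 (0.31) or P56 replicate 3 (0.31) and with array weights (0.36). Hoxa13 (0.26, adjusted p 0.0335) was not called without P21 replicate 1 (0.26), P21 replicate 3 (0.25) or P56 replicate 1 (0.11), with quantile normalization (0.17) or with array weights (0.25). Hoxb2 (−0.28, adjusted p 0.0156) was not called without P21 replicate 3 (−0.20) or P56 replicate 2 (−0.22), with array medians set to 0 (−0.05) or with array weights (−0.25). Among the genes that fell in the first week, Hoxa3 (−0.39, adjusted p 0.00287) lost its P56 call with array medians set to 0 (−0.15). Hoxd3 (−0.30, adjusted p 0.0280) lost it without P21 replicate 2 (−0.26), P21 replicate 3 (−0.27), P56 replicate 1 (−0.28) or P56 replicate 3 (−0.24), with array medians set to 0 (−0.07) and with array weights (−0.27). Hoxc13 (−0.24, adjusted p 0.0366) lost it without any 1 of the P21 replicates (−0.24 to −0.23), without P56 replicate 2 (−0.15), with array medians set to 0 (−0.0017) and with array weights (−0.24).

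Over the whole span from P0 to P56, 18 Hox genes were higher and 8 lower, beside 40.1% and 35.3% of all probe sets and 47.6% and 1.42% of the receptors. In percent of the 35, 51.4% were higher and 22.9% lower. By cluster, 4 of 9 were higher and 3 lower in A, 4 of 9 and 3 in B, 6 of 9 and 1 in C, and 4 of 8 and 1 in D. In groups 1 to 5, 1 was higher and 8 lower with a median of −0.59, and in groups 6 to 13, 17 were higher and 0 lower with a median of 0.39. The median was 0.24 over all 35, 0.085 over all probe sets and 0.19 over the receptors, and without P56 replicate 1 the Hox median was 0.13. With array medians set to 0 the median of all probe sets moved to 0.41 and that of the Hox genes to 0.56, and 26 were higher and 7 lower.

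The receptors shared the direction of the high paralog groups. Their median signal rose from 4.37 at P0 to 4.57 at P56, and their 95th percentile from 5.84 to 6.05. Of the 1196 receptor probe sets, 25.6% were higher and 2.09% lower at P56 than at P21, and 6.44% were higher and 2.42% lower at P7 than at P0. The part of this shift of dim probe sets in the Hox rises was not tested.

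**Figure D4:**
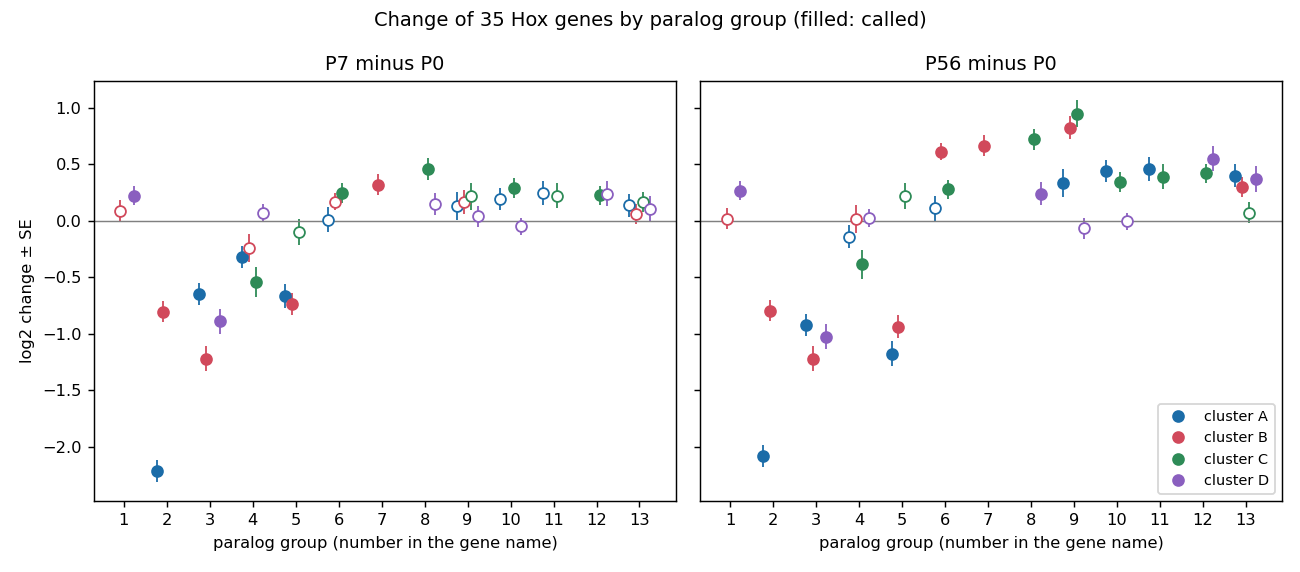
Log2 change (vertical axis, bars are the standard error of the fit) of each of the 35 Hox genes against its paralog group (horizontal axis), at P7 against P0 and at P56 against P0. Colours are clusters and filled points passed an adjusted p under 0.05. The filled points below 0 lie in groups 2 to 5, from −2.21 for Hoxa2 upward, and those above 0 lie in group 1 and groups 6 to 13, up to 0.95 for Hoxc9.

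The 12 Hox genes not described by array had means over the 15 arrays of 5.06 to 5.91. From P0 to P56, 9 of them were higher and 0 lower, by 0.24 to 0.46, beside 40.1% higher over all probe sets and 47.6% over the receptors. They were Hoxa9, Hoxa11, Hoxa13, Hoxc6, Hoxc10, Hoxc11, Hoxd1, Hoxd8 and Hoxd13, while Hoxb4 (0.01), Hoxc13 (0.07) and Hoxd10 (−0.0034) were not called. The calls of Hoxa9 (0.34) and Hoxd8 (0.24) ended without P0 replicate 2 (0.29 and 0.20) or P56 replicate 1 (0.13 and 0.18), and that of Hoxd8 also without P0 replicate 1 (0.26) and with array weights (0.24). Quantile normalization ended both (0.21 and 0.15). At P7, Hoxc6 (0.25, adjusted p 0.0198) and Hoxc10 (0.29, adjusted p 0.0102) were among the 6 higher genes, and the call of Hoxc6 ended without P0 replicate 2 (0.19) or P7 replicate 3 (0.20). The split at P7 was 11 higher and 9 lower with array medians set to 0, 13 and 8 with quantile normalization and 12 and 10 with array weights.

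Some signals may be shared between neighbours. In RefSeq the spans of 18 of the 35 genes overlap another gene, and 8 overlap another measured Hox gene. Hoxa3 overlaps Hoxa4, Hoxa5 and Hoxa6, Hoxb3 overlaps Hoxb4, and Hoxd3 overlaps Hoxd4. Hoxa5 also overlaps the noncoding Hoxaas3, Hoxb5 overlaps Hoxb5os and Hoxb2 overlaps Hoxb3os. Where probes of such genes lie is not given here, so the split between neighbours is uncertain.

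Genes that work with or on the Hox clusters are read against all probe sets, of which 40.1% were higher and 35.3% lower at P56 than at P0. Of 9 listed cofactors that bind DNA with Hox proteins, 8 were measured, and over that span 7 fell and 1 rose, with a median change of −1.29, and with array medians set to 0 the counts were 6 and 1. Meis2, a homeodomain partner, went from 12.48 at P0 to 8.60 at P7, 8.44 at P15, 9.65 at P21 and 6.69 at P56. Like Hoxa5 and Hoxb5 it rose at P21 (1.21). Of the 8 cofactors, 1 was higher and 0 were lower at P21 than at P15, beside 10.5% and 7.16% of all probe sets. Meis1 (−1.82), Pknox2 (−1.66) and Meis3 (−1.59) fell mostly between P0 and P7, and Pknox1 rose (0.41). The part of brainstem RNA in the Meis2 values was not tested.

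Of 20 listed regulators of retinoic acid and the early hindbrain, 19 were measured. From P0 to P56, 8 rose and 7 fell (11 and 7 with array medians set to 0), shares near the 40.1% and 35.3% of all probe sets. Crabp1, a binding protein for retinoic acid, fell from 10.90 to 7.71 (−3.20, SE 0.08), with 8.04 already at P7. The retinoid receptor Rxrg fell from 9.26 to 5.69 (−3.57), a level below the receptor percentile. Aldh1a2, which makes retinoic acid, fell by 1.46, and Gdf11, a growth factor that acts on Hox genes in the trunk, rose by 1.60.

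Genes that mark the isthmus and the cerebellum itself, ahead of the Hox domains, fell in the first week as well. All 12 listed were measured. At P7, 9 were lower and 0 higher than at P0, beside 28.5% lower and 33.6% higher over all probe sets. With array medians set to 0 these counts were 8 and 1. From P0 to P56, 7 fell and 1 rose, with a median of −0.83, beside 35.3% lower and 40.1% higher over all probe sets, and with array medians set to 0 the counts were 7 and 4. Otx2, of the midbrain and choroid plexus, fell (−2.94), as did Pax5 (−2.10), Pax8 (−1.89) and En1 (−1.66). The gene that rose was Fgf8, a signal of the isthmus, named here after its value was seen.

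Of 19 listed genes beside the clusters, 17 were measured. From P0 to P56, 5 rose and 9 fell (8 and 3 with array medians set to 0), beside 40.1% higher and 35.3% lower over all probe sets. Jazf1, near cluster A, fell by 3.32, whereas Tax1bp1, also near cluster A, rose by 0.93. Cbx5, near cluster C and coding for a heterochromatin protein, fell by 1.54, and Mtx2, a mitochondrial import protein near cluster D, rose by 1.24.

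Of 15 noncoding genes of the clusters 8 were measured, and 4 were higher at P56 than at P0, all microRNA genes, and 0 lower (7 and 0 with array medians set to 0), beside 40.1% higher over all probe sets and 47.6% over the receptors. They were Mir10a (4.02 at P0 and 4.68 at P56, change 0.67, adjusted p 4.10e-05), Mir10b (0.40), Mir196a-2 (0.38) and Mir196b (0.29). All 4 lay below the receptor percentile, so no signal above background is shown. The array reads the gene of each and not the mature strand. The 2 genes of the miR-10 family lie among the low groups of clusters B and D, and their mature strands share a seed, bases 2 to 8, printed in capitals from RefSeq (GRCm38.p6, plus strand, chr11:96317186-96317208 for miR-10a-5p and chr2:74726074-74726096 for miR-10b-5p).

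miR-10a-5p: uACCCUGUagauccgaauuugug
miR-10b-5p: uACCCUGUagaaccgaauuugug

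Of 25 listed chromatin regulators of the clusters, 23 were measured. From P0 to P56, 7 rose and 12 fell, beside 40.1% higher and 35.3% lower over all probe sets. The median was −0.31. With array medians set to 0 the split was 11 and 10 and the median 0.01. Ezh2, the Polycomb methyltransferase, fell (−2.89), as did Pcgf2, a subunit of the other main Polycomb complex (−2.12). Kmt2a, which keeps Hox genes active in the embryo, fell by 1.98, with −1.86 of it at P7. Cbx7, a Polycomb reader of methylated histones, rose by 1.59.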

How the data were processed

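The data are 15 Affymetrix arrays of ribosome-purified RNA, 3 at each of 5 ages, grouped by the age in the labels. The authors deposited log2 values per probe set, from 3.15 to 14.08, and no value was changed. Affymetrix Power Tools is named in the submitters' processing notes. The algorithm, background correction and log base were not given in the sources used here, and base 2 was read from the range. The number of arrays limits the precision, and no depth is given. Of 22092 probe sets, 20996 had 1 symbol, 91 several and 1005 none in the platform annotation, whose year is 2016. For a gene the single-symbol probe set with the highest mean was used.

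All probe sets were tested with limma 3.58.1 (R 4.3.3), with 1 mean per age, no covariate, two-sided tests and Benjamini-Hochberg adjustment within each contrast, and called at an adjusted p under 0.05. An exact permutation test of 3 against 3 arrays cannot pass that threshold, so the calls rest on limma's pooled spread (10 residual and 6.5 prior degrees of freedom). Errors are the SE of the fit or, for means, the SD. The code was tested on simulated data. Values on all arrays are given for members changed by at least 0.5 in a called contrast or with a mean above the 95th percentile of the receptors, and up to 4 called genes are named per other list, cell type lists given as counts and means apart from brainstem neurons. The members, lists and rules were chosen with earlier results of these data known. Alternatives were array medians set to 0, quantile normalization, another prior, array weights, a replicate block, other probe set rules, a filter on dim probe sets and leaving out each array. Promoter and miRNA sequences come from RefSeq tables of GRCm38.p6. Python 3.11.15 with matplotlib 3.10.9 drew the figures.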

Additional observations from a re-analysis of the deposited data

How the results depend on the processing

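Of 57 called changes of Hox genes, none changed sign under any alternative run. Their calls all stood under another prior and the replicate block. They also stood under the other probe set rules. Each Hox gene had 1 probe set, so those rules cannot change a Hox value and bear only on the pooled spread and the adjustment. Array medians set to 0 ended 6 of them, quantile normalization 5 and array weights 9. The count of genes higher at P7 was 6, and 13 with quantile normalization, 11 with array medians set to 0 and 12 with array weights. From P21 to P56, 7 were higher and 7 lower, and 19 and 2 with array medians set to 0, 4 and 3 with array weights. The count above the receptor mark was 18, and 35 with the receptor median in its place. Leaving out 1 array gave 19 to 27 genes that differed between ages, 4 to 8 higher and 9 lower at P7, 0 and 0 at P15, 2 to 3 higher and 0 lower at P21, 4 to 10 higher and 4 to 7 lower from P21 to P56, 15 to 20 higher and 7 to 8 lower from P0 to P56, and 18 to 19 above the receptor mark. The causes were not tested. Removing the dimmest 50% of probe sets left no Hox gene and gives no value, and dim signal limits the size of most changes.

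With the replicate block the counts were 25 genes between ages, 7 higher and 9 lower at P7, 2 higher at P21, 7 and 7 from P21 to P56 and 18 and 8 from P0 to P56. Averaged over all ages, the replicate numbers did not pair the arrays: deviations of same-numbered arrays correlated at 0.0017 over 30 pairs (−0.31 to 0.45, 5 over 0.1), and those of different numbers at −0.00089 over 60. Between P15 and P21, same-numbered arrays correlated at 0.33, 0.45 and 0.016 for replicates 1, 2 and 3. At that step, P15 replicate 1 with P21 replicate 2 gave −0.42, and P15 replicate 2 with P21 replicate 1 gave −0.34. Deviations were taken from the mean of each age, so they cancel within an age. Correlations of different numbers therefore mirror those of same numbers in part and are no independent comparison. Whether the P15 and P21 arrays were linked was not tested.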
